A study of Homo sapiens with 64 samples.

Results

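The 10 genes described here set or remove methyl groups on DNA and on histone H3. They are the DNA methyltransferases DNMT1, DNMT3A and DNMT3B, the 5-methylcytosine dioxygenases TET1, TET2 and TET3, the H3K27 methyltransferases EZH1 and EZH2, and the H3K4 demethylases KDM5A and KDM5B. They were chosen by name, with earlier results of these data known. Each matched 1 Ensembl row of the count files, 10 of the 54127 genes listed. RNA was sequenced from 64 samples of human colorectal cancer cell lines that had been grown as nonadherent spheroids with EGF and bFGF. For 48 of them, cells labeled with the dye CFSE, which is diluted at each division, were sorted into label-retaining cells (LRCs, CFSE high) and cycling non-LRCs (CFSE bulk), with 4 replicates of each population in each of 6 lines (DLD1, HCT15, HT55, RKO, SW48, SW948). A further 16 libraries came from control cultures, labelled DLD1, that were not sorted, without dye (DMSO) or with CFSE, on d1 and on the later day that the labels call d5, with 4 replicates per group. Each group stands for 1 cell line, and the study's methods describe the replicates as biological, while the labels do not tie them to separate cultures. P-values measure the spread between these libraries.

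As background, DNMT1 copies existing CpG methylation onto the new DNA strand, whereas DNMT3A and DNMT3B place methyl groups on unmethylated sites. TET enzymes oxidize 5-methylcytosine, the first step of its removal. EZH1 and EZH2 are the alternative catalytic subunits of Polycomb repressive complex 2 (PRC2), which methylates H3K27 at silenced genes, and EZH2 is the form that prevails in dividing cells. KDM5A and KDM5B remove methyl groups from H3K4 at promoters, and KDM5B is known as a marker of slowly cycling cells in melanoma.

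Libraries held 12237225 to 20913455 reads on genes (median 15063858). Values are given as CPM, the TMM-scaled counts per 1e6 reads on genes, and a gene was called where edgeR's quasi-likelihood test gave a Benjamini-Hochberg adjusted p under 0.05 over all genes tested. The epithelial markers EPCAM, CDH1 and KRT19 were present in every line but RKO, which held at most 1.39 CPM of CDH1, 1.65 CPM of KRT19 and 19.8 CPM of EPCAM, and VIL1 was low in both RKO (at most 0.876 CPM) and SW48 (at most 4.73 CPM). CD3E was at 0 in every library, but PTPRC (CD45) reached 22.3 CPM in SW48 and CD14 9.71 CPM in the controls. Among the controls, the library labelled DMSO d1 replicate 4 had a mean r of log2 CPM of 0.9855 with the DMSO d5 libraries and of 0.962 with the other libraries of its own group, so it went against its label. CFSE d1 also split into pairs. The mean chi-square per gene was 5.94 between replicates 1 and 2 and 4.09 between replicates 3 and 4. It was 54.2 between replicates 1 and 3. Replicates 3 and 4 had a mean r of 0.9773 and 0.9782 with DMSO d1, and replicates 1 and 2 of 0.9444 and 0.9459. Which pair is at odds with its label cannot be told from these values. In DMSO d5, replicate 1 was also far from replicates 3 and 4 (chi-square 66.5 and 75.6). As a set, the controls were also nearer to the sorted libraries labelled HCT15 than to those labelled DLD1. Over 16899 genes their mean r of log2 CPM was 0.9771 with the sorted HCT15 libraries and 0.9478 with the sorted DLD1 libraries, while sorted DLD1 and HCT15, which are known to be closely related lines, had 0.9604. No gene was at 5 CPM or more in all libraries of the controls or of HCT15 and at most 0.2 CPM in all of the other set, whereas 3 genes were present in the controls and absent in sorted DLD1 by this measure, and 5 the reverse. CD14 was at 4.49 to 9.71 CPM in the controls, 5.61 to 8.66 in HCT15 and 0.156 to 0.858 in sorted DLD1, and KRT20 at 0.13 to 2.6, 1.96 to 4.11 and 28.7 to 36.9 CPM. An exchange of the labels of the sorted DLD1 and HCT15 libraries would give the same values, so which set is at odds with its label cannot be told. The controls are therefore called the controls labelled DLD1, and sorted DLD1 and HCT15 are named by their labels. Control results of the members are given with and without DMSO d1 replicate 4, and with and without CFSE d1 replicates 1 and 2. Results of other gene lists in the controls are from all libraries only. Fits without CFSE d1 replicates 3 and 4, or without DMSO d5 replicate 1 alone, were not run.

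Transcript levels of the 10 genes spanned a wide range. As RPKM, CPM per kilobase of the canonical transcript, DNMT1 had group means of 18.2 to 43.4 over the 12 sorted groups, the range with the highest lower bound among the members. EZH2 (6.71 to 20.4), KDM5B (6.5 to 19.4) and KDM5A (6.91 to 14.0) followed, with EZH1 at 3.59 to 9.44. TET2 (1.68 to 6.42), TET3 (0.921 to 2.86), DNMT3A (1.17 to 3.49) and DNMT3B (0.719 to 3.58) were lower. TET1 was at 0.00192 to 0.344 RPKM. These levels depend on the length used: over all annotated exons KDM5A (6.15 to 12.4 RPKM) overlapped DNMT1 (6.26 to 14.9), and EZH2 was at 1.65 to 5.03.

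The lines differed from each other in all 10 genes, in non-LRCs and in LRCs, but so did nearly every gene: 98.3% of genes tested were called between lines in non-LRCs and 98.2% in LRCs. The orders that follow are means of the 4 non-LRC libraries in CPM, and lines called indistinct had an adjusted p of 0.05 or more for that pair of lines. The members' levels in each library are shown in the plot of CPM by line.

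**Figure D1:**
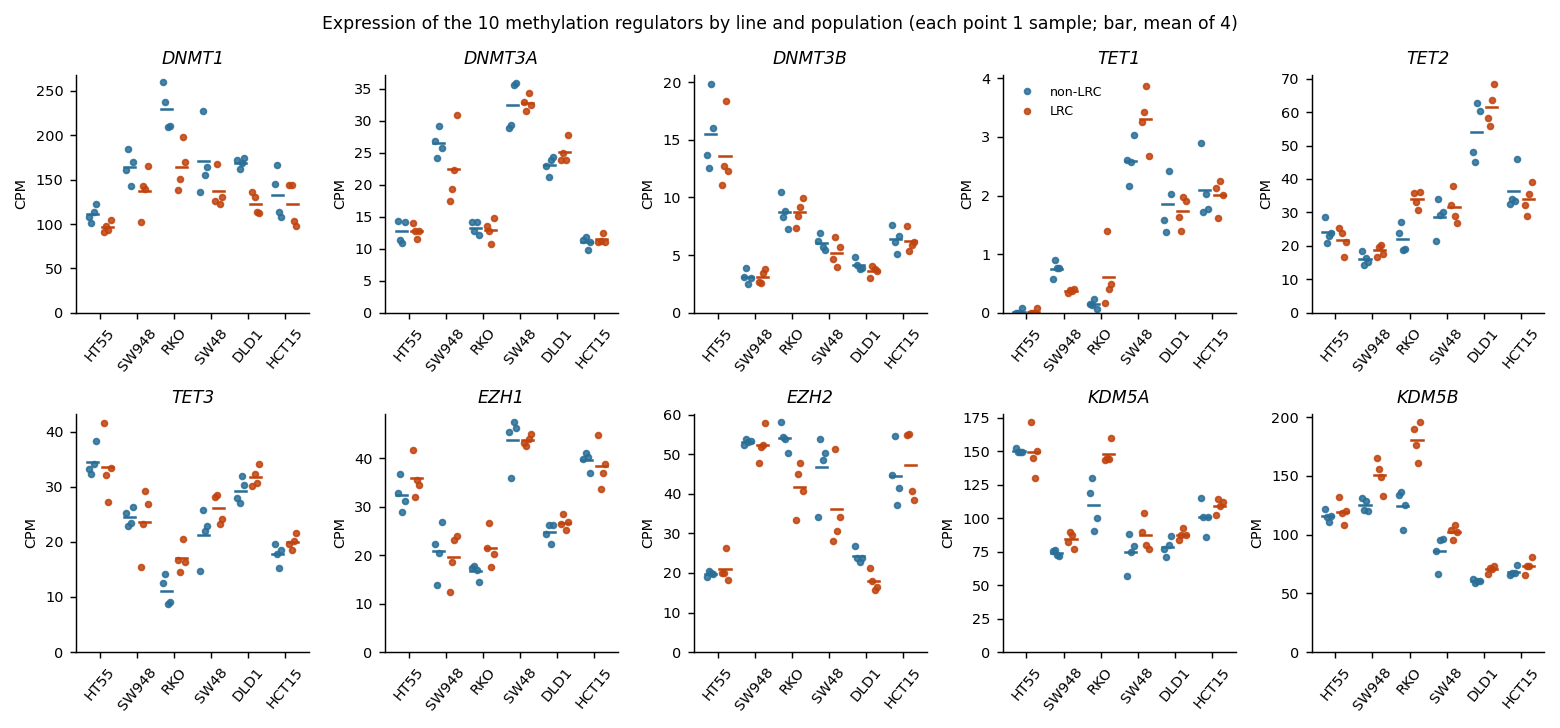
CPM of each member in the 48 sorted samples, with 1 panel per gene, the 6 lines on the x axis, a linear y axis from 0, non-LRCs in blue and LRCs in orange; each point is 1 sample and each bar the mean of 4. DNMT1 is highest in RKO non-LRCs (209 to 260 CPM), TET1 is at or near 0 in HT55, and KDM5B in RKO LRCs (161 to 196 CPM) lies above all RKO non-LRCs (104 to 136 CPM).

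DNMT1 (GRCh37 chr19:10244018-10341962) was highest in RKO (229 CPM), then at 171 CPM in SW48, 170 CPM in DLD1 and 164 CPM in SW948, which were indistinct (adjusted p = 0.746 to 0.968, edgeR). HCT15 (133 CPM) and HT55 (111 CPM) were the lowest and did not differ from each other beyond their spread (adjusted p = 0.116). The de novo enzymes followed other orders. DNMT3A (chr2:25450724-25565459) was highest in SW48 (32.4 CPM), SW948 (26.5 CPM) and DLD1 (23.1 CPM), the latter pair being indistinct, and was at 11 to 13.3 CPM in HCT15, HT55 and RKO. DNMT3B (chr20:31350191-31397165) had its highest level in HT55 (15.5 CPM) and its lowest in SW948 (3.13 CPM), with RKO at 8.71, HCT15 at 6.37, SW48 at 6.08 and DLD1 at 4.17 CPM. HT55 was thus the line with the lowest DNMT1 mean and the highest DNMT3B mean.

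TET1 (chr10:70320094-70454244) split the lines. HT55 had 0 TET1 reads in 6 of its 8 sorted libraries and 1 read in the other 2. RKO non-LRCs had 1 to 3 reads (0.0624 to 0.237 CPM) and SW948 non-LRCs 9 to 12 reads (0.571 to 0.904 CPM). SW48 (2.60 CPM), HCT15 (2.10 CPM) and DLD1 (1.85 CPM) were the highest and indistinct (adjusted p = 0.0809 to 0.544). TET2 (chr4:106067032-106200973) was highest in DLD1 (54.1 CPM) and lowest in SW948 (16.2 CPM), with HCT15 at 36.5, SW48 at 28.6, HT55 at 24 and RKO at 22.2 CPM. TET3 (chr2:74212037-74335303) ran from 34.5 CPM in HT55 and 29.3 CPM in DLD1, which were indistinct, to 11.1 CPM in RKO. Of the TET3 exon bases, 3.01% overlap a lncRNA on the same strand, which had 1308 reads over all 64 libraries.

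EZH2 (chr7:148504349-148581413) fell into 2 levels. RKO (54.2 CPM), SW948 (53.2 CPM), SW48 (46.7 CPM) and HCT15 (44.6 CPM) formed the upper level, in which neighbouring lines were indistinct, and DLD1 (24.2 CPM) and HT55 (19.8 CPM), which differed from each other, the lower. Its relative EZH1 (chr17:40852293-40897067) was highest in SW48 (43.7 CPM) and HCT15 (39.5 CPM) and lowest in RKO (16.6 CPM). KDM5A (chr12:389223-498486) was highest in HT55 (150 CPM), ahead of RKO (110 CPM) and HCT15 (101 CPM), with DLD1, SW48 and SW948 indistinct at 74.0 to 78.7 CPM. KDM5B (chr1:202693623-202777615) was at 116 to 126 CPM in SW948, RKO and HT55, at 86.0 CPM in SW48, and at 68.4 and 60.4 CPM in HCT15 and DLD1. For DLD1 and HCT15, the pair of lines with the fewest calls (49.4% of genes), 8 of the 10 members still differed, all but TET1 and KDM5B.

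Across the 6 lines, LRCs had less DNMT1 and more KDM5B and KDM5A than non-LRCs. DNMT1 fell by 0.31 on the log2 scale (SE 0.06, 24 LRC and 24 non-LRC libraries, edgeR adjusted p = 0.000106), and KDM5B rose by 0.23 (SE 0.04, adjusted p = 2.92e-05) and KDM5A by 0.18 (SE 0.04, adjusted p = 0.00192). EZH2 was called lower, at -0.17 (SE 0.07), and TET3 higher, at 0.17 (SE 0.07), both with an adjusted p of 0.0491. In all, 5 of the 10 members were called, 3 higher and 2 lower, against 22.9% of all 16603 genes tested. Since the members were chosen with earlier results of these data known, this comparison is a description. The members' median log2 fold change was 0.0917, against 0.0148 over all genes. Because these are bulk samples, fewer cells of one kind and less RNA per cell cannot be told apart.

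DNMT1 was lower in LRCs in 24 of 24 pairs of libraries with the same replicate number, and KDM5B was higher in 23 of 24 and KDM5A in 20 of 24. EZH2 was lower in 18 of 24 pairs and TET3 higher in 18 of 24. In RKO and SW948 same-numbered libraries did not all deviate together (lowest r -0.091 and -0.013), so their pairs are matches by number only. The DNMT1, KDM5A and KDM5B calls held under all 9 alternatives tried, with log2 fold changes of -0.34 to -0.29, 0.17 to 0.19 and 0.22 to 0.24. EZH2 was called under 1 of the 9 alternatives (adjusted p = 0.0175 to 0.217) and TET3 under 2 (adjusted p = 0.0294 to 0.185), and both were lost whichever replicate number was left out.

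The remaining 5 members were not called across lines. DNMT3A had a log2 fold change of -0.01 (95% interval -0.11 to 0.08) and DNMT3B of -0.11 (-0.25 to 0.03). EZH1 was at 0.08 (-0.04 to 0.20) and TET2 at 0.15 (0.01 to 0.28, adjusted p = 0.101). TET1 was at 0.11 with a wide interval (-0.22 to 0.43).

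**Figure D2:**
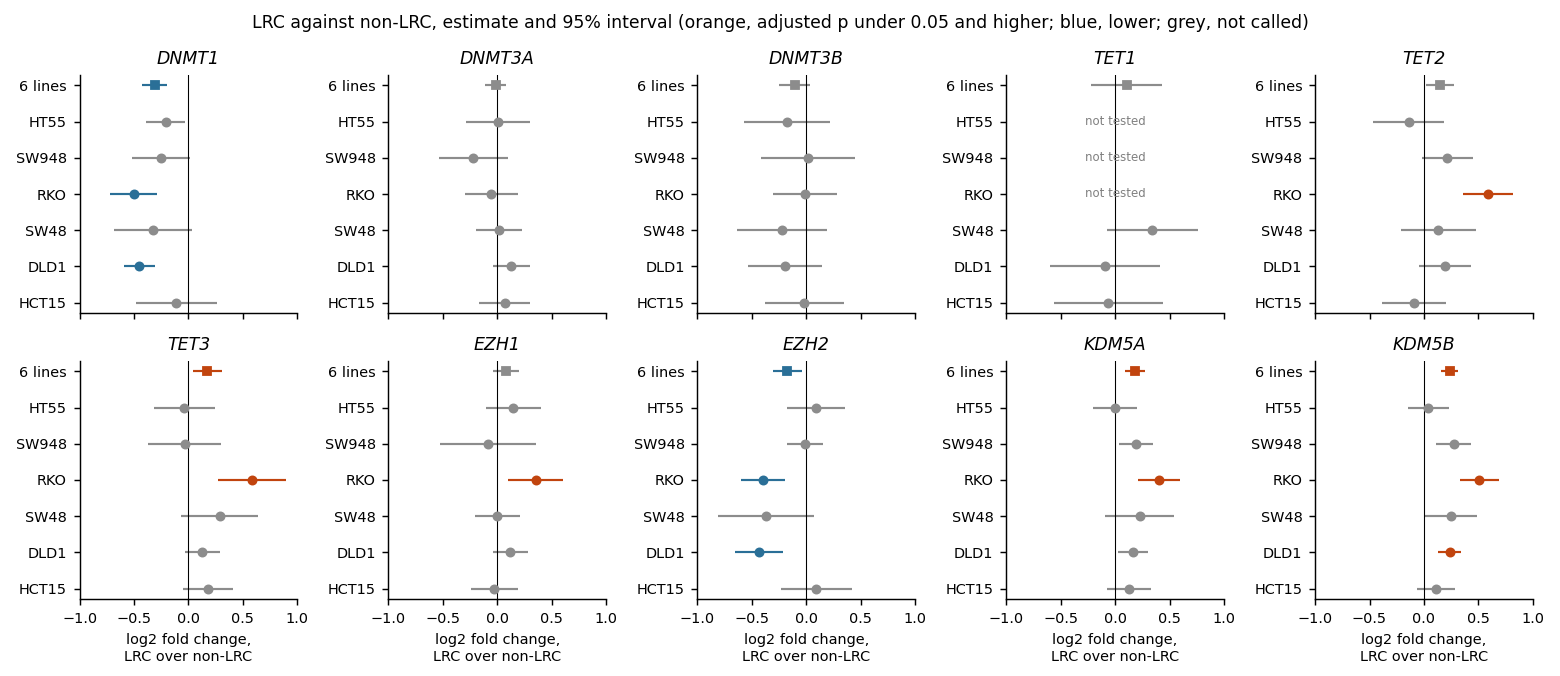
Log2 fold change of LRCs over non-LRCs (x axis) for each member, with the 95% interval, across the 6 lines (square) and in each line (circles); orange marks called higher, blue called lower and grey not called. In these fits, without the replicate number as a block, RKO has calls in 7 of the 9 members tested there and DLD1 in 3 of 10. HT55, SW948, SW48 and HCT15 have calls in 0.

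Within lines, RKO carried most of the calls in fits without the replicate number as a block. That block added calls in DLD1 and SW48, as given below. The 4 RKO non-LRC libraries had 260, 237, 209 and 211 CPM of DNMT1 and the 4 LRC libraries 138, 151, 198 and 170 CPM, so that the populations did not overlap. The difference was -0.50 on the log2 scale (SE 0.10, adjusted p = 0.00102). EZH2 was at 58.1, 54.4, 53.8 and 50.3 CPM in RKO non-LRCs and at 33.4, 45.1, 47.7 and 40.8 CPM in LRCs, again without overlap (-0.40, SE 0.10, adjusted p = 0.00416).

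On the demethylase side, KDM5B in RKO was at 134, 136, 104 and 125 CPM in non-LRCs and at 190, 176, 161 and 196 CPM in LRCs (0.51, SE 0.09, adjusted p = 0.000256). KDM5A rose from 119, 130, 90.4 and 100 CPM to 143, 145, 144 and 160 CPM (0.41, SE 0.09, adjusted p = 0.0023). For both, every LRC library was above every non-LRC library. TET2 rose from 23.7, 27.1, 18.8 and 19.1 CPM to 35.8, 33.1, 30.8 and 36.2 CPM (0.59, SE 0.11, adjusted p = 0.000501), also without overlap. TET3 rose from 12.5, 14.2, 8.67 and 9.11 CPM to 16.8, 14.6, 20.5 and 16.3 CPM (0.585, SE 0.15, adjusted p = 0.00516), where the lowest LRC and the highest non-LRC library were close. EZH1 rose by 0.35 (SE 0.12, adjusted p = 0.0289) with overlapping libraries, and this call was lost in 4 of 10 alternatives.

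These 7 calls of 9 members tested stood against 41.5% of all genes called in RKO. The share of all genes whose populations did not overlap was not counted, in RKO or in any other line. Reads that the counting assigned to no gene feature made up 7.19 to 9.76% in RKO LRCs and 6.41 to 7.64% in RKO non-LRCs. Whether they lay in introns or between genes is not given, and their part in the differences was not tested. TET1, with 1 to 3 reads in the non-LRC and 2 to 24 reads in the LRC libraries, was below the minimum of 10 reads in 4 samples and had no test in RKO. DNMT3A (12.1 to 14.2 CPM in non-LRCs, 10.7 to 14.8 in LRCs) and DNMT3B (7.24 to 10.5 and 7.31 to 9.95 CPM) overlapped between populations and were not called.

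In DLD1, 14.6% of genes and 3 members were called. DNMT1 was at 172, 162, 169 and 174 CPM in non-LRCs and at 136, 130, 114 and 112 CPM in LRCs, which did not overlap (-0.45, SE 0.07, adjusted p = 0.00228). EZH2 fell from 26.8, 23.8, 22.7 and 23.7 CPM to 21.3, 18.0, 15.7 and 16.4 CPM (-0.43, SE 0.10, adjusted p = 0.0167). KDM5B rose from 62.1, 59.2, 60.1 and 60.3 CPM to 66.7, 71.8, 70.6 and 73.7 CPM (0.24, SE 0.05, adjusted p = 0.0102). The populations did not overlap in these 3 genes, which are those called. The EZH2 and KDM5B calls were lost without replicate 3, without replicate 4, and in a fit of all 48 sorted samples. With the replicate number as a block, 33.8% of genes were called in DLD1, and TET2 (0.20, adjusted p = 0.00456) and KDM5A (0.17, adjusted p = 0.00764) were called higher as well.

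Without the block, no member was called in the other 4 lines. The background was 0% of genes in HT55, 0% in SW948, 0.796% in SW48 and 0.977% in HCT15 (edgeR). At an unadjusted p under 0.05, 1005 genes passed in HT55, 2350 in SW948, 1728 in SW48 and 2415 in HCT15. DESeq2 called 37, 245, 360 and 528 genes in these lines and 0 members in each. The members with an unadjusted p under 0.05 were DNMT1 in HT55, KDM5A and KDM5B in SW948 and KDM5B in SW48. KDM5B in SW948 was at 131, 121, 129 and 120 CPM in non-LRCs and at 165, 156, 149 and 133 CPM in LRCs, without overlap, but missed the threshold (0.27, SE 0.075, adjusted p = 0.15). KDM5A in SW948 also did not overlap (71.7 to 76.2 and 76.7 to 89.6 CPM, adjusted p = 0.217).

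SW48 libraries varied more. Its DNMT1 was at 136, 227, 155 and 164 CPM in non-LRCs and at 126, 168, 123 and 130 CPM in LRCs, replicate 2 being the highest in both populations. The unblocked difference was -0.32 (SE 0.16, adjusted p = 0.434), and once the replicate number, which paired the libraries in this line, was a block, DNMT1 (-0.31, adjusted p = 0.021) and EZH2 (-0.39, adjusted p = 0.0349) were called lower, against 9.69% of genes. Under the block no member was called in HT55, HCT15 or SW948, against 0%, 21.3% and 3.66% of genes. In HCT15, EZH2 was at 44.8, 54.6, 37.3 and 41.5 CPM in non-LRCs and at 54.9, 55.2, 40.6 and 38.5 CPM in LRCs, a log2 fold change of 0.09 with a 95% interval of -0.24 to 0.42.

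The test of whether the LRC effect differed between lines called 14.3% of genes and 2 members, TET1 (adjusted p = 0.00738) and KDM5B (adjusted p = 0.0446). For KDM5B the effect was positive in all 6 lines, from 0.04 in HT55 to 0.51 in RKO. TET1 moved both ways on few reads: SW948 had 9, 12, 12 and 12 reads in non-LRCs and 5, 6, 6 and 8 in LRCs, RKO 2, 2, 3 and 1 against 2, 24, 5 and 9, and SW48 37, 32, 42 and 39 against 47, 46, 43 and 38. Under the alternatives the KDM5B call was lost in 4 of 9 and the TET1 call in 3 of 9. EZH2 (adjusted p = 0.0912) and TET2 (adjusted p = 0.0537) did not pass, but both did with the replicate block (adjusted p = 0.00145 and 0.00224), which called 33.6% of genes.

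Across lines DNMT1 and EZH2 were called lower in LRCs, EZH2 under only 1 of the 9 alternatives. Among the sorted samples, these 2 members had the highest correlations with proliferation genes. A list of 16 such genes (PCNA, MCM2 to MCM7, MKI67, TOP2A, CCNA2, CCNB1, CDK1, AURKA, PLK1, RRM2 and TYMS), which encode replication and mitosis proteins, had 14 members lower in LRCs in RKO (median -0.68), 13 in DLD1 (median -0.55) and 8 across lines (median -0.27). The median of the list was 0.05 in HT55, 0.14 in HCT15, -0.02 in SW948 and -0.46 in SW48, with 0 genes called in each of these lines. The summed level of the list was at most 2310 CPM in RKO LRCs and at least 2860 CPM in RKO non-LRCs, and it was 1400 to 1980 CPM against 2260 to 2520 CPM in DLD1. The part of these genes in the members' differences was not tested. Over the 48 sorted samples, with log2 CPM centred on each line, Pearson's r with the mean of the list was 0.903 for EZH2, 0.82 for DNMT1 and 0.39 for DNMT3B. KDM5B ran the other way, at -0.705. With each line and population centred separately these became 0.856, 0.792, 0.36 and -0.608. For the other 6 members r was between -0.34 and -0.127 by line, but these negative values did not all hold with populations centred separately, where KDM5A was at 0.364, TET3 at 0.178, TET2 at -0.016, TET1 at -0.035, DNMT3A at -0.183 and EZH1 at -0.214. The points share libraries and depth, so these are descriptions.

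**Figure D3:**
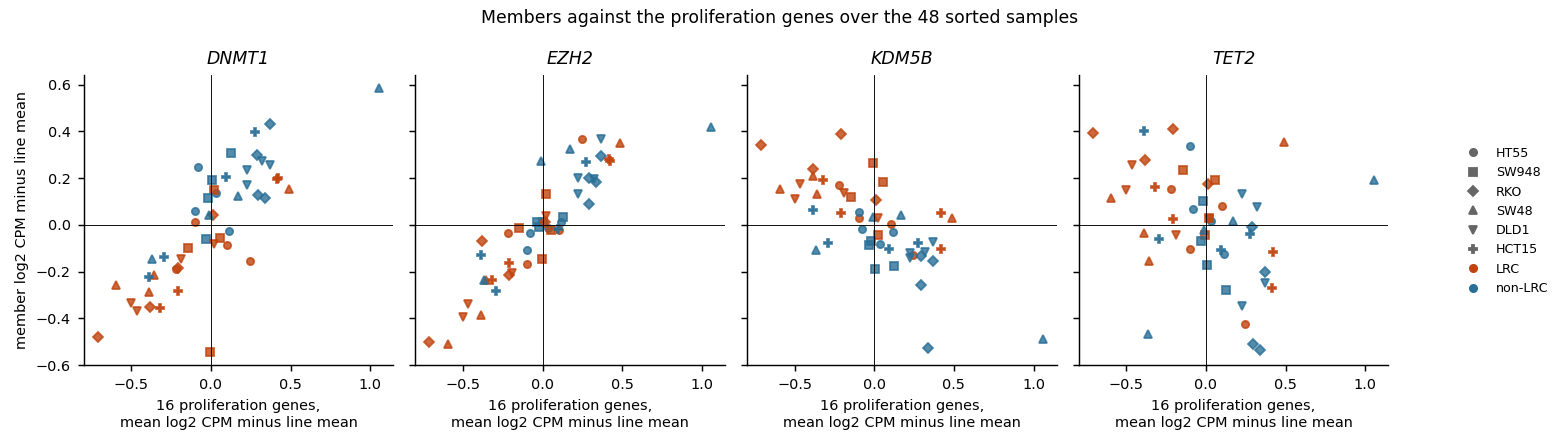
Log2 CPM of DNMT1, EZH2, KDM5B and TET2 minus the line mean (y axis) against the mean log2 CPM of the 16 proliferation genes minus the line mean (x axis), with 1 point per sorted sample, a symbol per line, LRCs in orange and non-LRCs in blue. DNMT1 and EZH2 rise with the proliferation genes (r = 0.82 and 0.903), KDM5B falls (r = -0.705) and TET2 is scattered (r = -0.34).

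Among the members, the highest correlations over the same samples were those of TET2 with KDM5A (r = 0.777), TET3 with KDM5A (0.771), DNMT1 with EZH2 (0.768) and TET2 with TET3 (0.706). KDM5B had r = 0.62 with KDM5A, 0.598 with TET2 and 0.425 with TET3, and -0.739 with DNMT1 and -0.609 with EZH2. DNMT3B was at 0.465 with DNMT1 and 0.452 with EZH2, and DNMT3A at 0.434 with EZH1.

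The genes most like each member over the same 48 samples, of 16012 compared, differed between members. For EZH2 they were the mitotic genes NUF2, NUSAP1 and PBK (r = 0.9 to 0.904), and for DNMT1 they were SMC1A, KHSRP and GINS4 (r = 0.869 to 0.915). For TET2 they were VPS13B, ATG2B and FRYL (r = 0.83 to 0.862), for TET3 ZZEF1, HERC1 and KMT2C (r = 0.89 to 0.899), and for KDM5A SON, PHIP and NCOA3 (r = 0.864 to 0.87). KDM5B was nearest to LAMC1, KLHL24 and FOXN3 (r = 0.845 to 0.88). EZH1 was nearest to ALS2CL, AHSA2P and NEAT1 (r = 0.78 to 0.794), DNMT3A to NCOR1, EML5 and FAM193B (r = 0.642 to 0.651), DNMT3B to SLC18B1, DBF4B and LIG1 (r = 0.518 to 0.533) and TET1 to GOLGA7B, SOGA1 and LINC01609 (r = 0.639 to 0.668).

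6 of the members have long transcripts, and long genes moved with label retention in some lines. The canonical transcripts of TET2 (9589 bases), TET3 (12060), TET1 (9612), DNMT3A (9421), KDM5A (10701) and KDM5B (9292) exceed 9000 bases, against a median of 3298 bases over 13673 protein-coding genes. The genes nearest to TET2 are longer still (11692 to 14011 bases). Of those nearest to TET3, ZZEF1 (11466 bases) is shorter than TET3, and HERC1 (15197) and KMT2C (16860) are longer. Those nearest to KDM5B are shorter (7331 to 8021) and those nearest to KDM5A lie between 7961 and 11926 bases. SMC1A, nearest to DNMT1, has 9710 bases. In RKO, 45.3% of the 660 protein-coding genes with transcripts of 9000 bases or longer were higher in LRCs and 6.36% lower, whereas 19.5% of shorter genes were higher and 24.1% lower. Across the 6 lines the shares were 20.8% higher and 3.69% lower among long and 13.1% and 12.9% among shorter genes. In DLD1 they were 7.54% and 6.28% against 7.06% and 8.75%. In HT55 the median log2 fold change of the long genes was -0.0638 and that of the shorter ones -0.0023. What part length has in the members' differences was not tested.

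The promoter of EZH2 is shown because it alone among the members' promoters held one of the E2F motif sequences searched. RefSeq gives 20 promoter windows for the 10 genes (GRCh38.p14, 250 bases before to 50 after each start). The letters TTTCCCGC and TTTGGCGC were searched on both strands. Other forms of the E2F motif were not searched, so a window without a match may still hold one. A match was found in 1 of the 20 windows, and in 797 of 35116 windows of the same length over all genes (2.27%). Below, the match is in capitals, and it begins 2 bases after the start. The DNMT1 window, which held no match of these letters but was not searched for other forms, is also given. Both read 5′ to 3′ on the strand of the gene.
EZH2, GRCh38.p14 chr7:148884242-148884541, minus strand: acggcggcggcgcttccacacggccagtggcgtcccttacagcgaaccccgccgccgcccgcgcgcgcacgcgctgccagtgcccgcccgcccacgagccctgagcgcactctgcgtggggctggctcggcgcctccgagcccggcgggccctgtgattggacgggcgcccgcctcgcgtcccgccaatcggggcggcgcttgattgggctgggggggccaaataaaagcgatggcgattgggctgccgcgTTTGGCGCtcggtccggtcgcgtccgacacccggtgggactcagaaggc
DNMT1, GRCh38.p14 chr19:10194904-10195203, minus strand: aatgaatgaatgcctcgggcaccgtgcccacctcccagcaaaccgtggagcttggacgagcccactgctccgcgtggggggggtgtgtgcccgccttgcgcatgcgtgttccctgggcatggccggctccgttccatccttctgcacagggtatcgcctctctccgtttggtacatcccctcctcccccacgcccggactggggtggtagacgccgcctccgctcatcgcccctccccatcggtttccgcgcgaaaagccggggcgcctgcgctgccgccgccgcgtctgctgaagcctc
The EZH2 window holds 46 CpG sites and the DNMT1 window 30, against a median of 27 over the members' windows and 14 over all windows. A match is a description of letters and no evidence of binding, and no match says nothing about the factor.

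Genes that act with or against the members were called in both directions. Of 7 tested DNA methylation partners, 3 were lower in LRCs across lines and 0 higher: CDCA7 (-0.45, SE 0.08) and HELLS (-0.21, SE 0.07), which form a chromatin remodeler needed for DNA methylation, and USP7 (-0.08, SE 0.03), which stabilizes DNMT1. CDCA7 was at -0.81 in both RKO and DLD1. Of 13 methyl-CpG readers and demethylation partners, 5 were lower and 0 higher. They included IDH1 (-0.25) and IDH2 (-0.19), which make the 2-oxoglutarate that TET and KDM enzymes consume, and MBD2 (-0.13) and MBD3 (-0.17), of the NuRD complexes. D2HGDH (-0.19), which clears 2-hydroxyglutarate, was the fifth.

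Of 9 other PRC2 subunits tested, 2 were higher and 2 lower. PHF1, a subunit that directs PRC2 to chromatin, rose by 0.48 (SE 0.07) and JARID2, a cofactor, by 0.17 (SE 0.06), whereas the histone-binding RBBP4 and RBBP7 fell by 0.15 and by 0.18. Both H3K27 demethylases, KDM6A (0.20) and KDM6B (0.28), were higher, KDM6B by 0.89 in RKO and 0.37 in DLD1. Of 11 genes of H3K4 methyltransferase complexes, 3 were higher and 3 lower, with KMT2C (0.22) and RBBP5 (0.13) and KMT2A (0.18) up and WDR5 (-0.12), DPY30 (-0.11) and MEN1 (-0.09) down. Of 5 further histone demethylase genes (KDM1A, KDM1B, KDM2A, KDM2B and KDM5C), KDM2A was higher (0.12) and KDM1A (-0.12) and KDM2B (-0.09) lower. Among 6 H3K9 methyltransferases EHMT2 (-0.16) and SUV39H2 (-0.16) were lower, and among 5 H3K36 methyltransferases NSD2 was lower (-0.20) and NSD3 (0.11) and ASH1L (0.16) higher. All these genes had an adjusted p under 0.05 in edgeR across lines, where 22.9% of all genes did. D2HGDH, DPY30 and MEN1 are outside the limit of 4 genes named per list and were added after their values were seen.

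The control cultures labelled DLD1 ask how the members change with time in culture and with the dye itself. The 4 comparisons share libraries, since each group enters a time and a dye comparison, so their results are not independent of each other. In cultures without dye, DNMT1, DNMT3A, DNMT3B and EZH2 were lower on d5 than on d1, where 25.5% of genes were called. EZH2 was at 121, 114, 116 and 60 CPM on d1 and at 50.1, 63.7, 55.3 and 56.1 CPM on d5 (-0.87, SE 0.16, adjusted p = 0.00578). DNMT1 was at 283, 285, 294 and 178 CPM on d1 and at 88.1, 155, 183 and 186 CPM on d5 (-0.76, SE 0.21, adjusted p = 0.0176). In both genes the low d1 value was that of the library labelled replicate 4, which lay within the d5 range. DNMT3A was at 10.6 to 10.9 CPM on d1 and at 4.74 to 9.78 CPM on d5 (-0.58, adjusted p = 0.0429). DNMT3B was at 9.49, 12.2, 8.83 and 5.18 CPM on d1 and at 4.67, 4.11, 5.83 and 7 CPM on d5 (-0.72, adjusted p = 0.0365).

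Without DMSO d1 replicate 4 the same 4 genes were called lower, EZH2 with a log2 fold change of -1.13 and DNMT1 of -0.98, and TET1 (0.91, adjusted p = 0.047), KDM5A (0.38, adjusted p = 0.0163) and KDM5B (0.71, adjusted p = 0.0479) were called higher, with 42.1% of all genes called. Without CFSE d1 replicates 1 and 2, which enter the common estimate of spread, the 4 calls remained and KDM5B was called higher (0.56, adjusted p = 0.0166), against 27.9% of genes. All 4 calls were lost when replicate 1, 2 or 3 was left out of every group. Another scaling moved the balance of this comparison: 1793 genes were higher and 1902 lower, but without TMM the median log2 fold change of all genes went from 0.041 to -0.087 and 22.9% of calls were higher, while the same 4 members were called. Of the 16 proliferation genes, 7 were lower on d5 and 0 higher. Their summed level was 2950 to 4740 CPM on d1 and 2330 to 3320 CPM on d5. These counts, and those of the list in the other control comparisons, were not obtained without the libraries at odds with their group.

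In CFSE-labeled cultures, where 39.3% of genes were called over time, DNMT1 and EZH2 were not called. EZH2 was at 97.8, 85.4, 89.3 and 90.4 CPM on d1 and at 93.7, 92.9, 86.1 and 79.9 CPM on d5 (95% interval of the log2 fold change -0.42 to 0.26), and DNMT1 at 207, 201, 280 and 275 and at 252, 213, 259 and 244 CPM (-0.46 to 0.40). Of the 16 proliferation genes, 7 were higher on d5 and 0 lower (median 0.35). Their summed levels were 3390 to 4120 CPM on d1 and 4460 to 5330 CPM on d5. The log2 fold changes of EZH2 and DNMT1 were -0.08 and -0.03, and a tie to the list was not tested. TET3 fell from 40.8, 43.9, 30.8 and 25.9 CPM to 21.6, 15.9, 24.8 and 17.9 CPM (-0.86, SE 0.25, adjusted p = 0.0115). EZH1 fell from 34.4, 32.9, 37.2 and 40.2 CPM to 18.7, 18.3, 31.0 and 25.4 CPM (-0.67, SE 0.19, adjusted p = 0.013). Neither overlapped between the days, and the share of all genes without overlap was not counted. Without TMM the median of all genes went from 0.0217 to -0.0912, with 36.1% of calls higher (2935 higher and 2771 lower with TMM). Without CFSE d1 replicates 1 and 2, EZH1 was still called (-0.81, adjusted p = 0.0322) and TET3 was not, against 19.6% of genes. Without DMSO d1 replicate 4, which enters the common estimate of spread, TET2 (-0.47, adjusted p = 0.0386) and KDM5B (-0.65, adjusted p = 0.0455) were called lower as well, against 43.7% of genes. Neither was called without CFSE d1 replicates 1 and 2, where TET2 was at -0.29 and KDM5B turned to 0.14 (adjusted p = 0.598). The share of reads that the counting assigned to no gene feature was 12.15 to 14.77% in CFSE d1 and 5.2 to 7.31% in CFSE d5. Without dye it was 8.96 to 13.57% on d1 and 5.19 to 8.35% on d5. Its part in the differences over time, with or without dye, was not tested.

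The dye comparison on d1 called 21.8% of genes and 1 member. KDM5B was at 35.4, 35.7, 41.3 and 58.7 CPM without dye and at 111, 102, 41.6 and 41.5 CPM with CFSE (0.82, SE 0.28, adjusted p = 0.0412). The high values were those of CFSE d1 replicates 1 and 2 alone, and without these libraries no member was called, and 196 genes in all (1.36%). The CFSE d1 libraries that remained were the pair nearer to DMSO d1. With the replicate number as a covariate no member was called either, against 26.2% of genes. Without DMSO d1 replicate 4, KDM5B (0.96, adjusted p = 0.0269) and KDM5A (0.41, adjusted p = 0.0262) were called higher and EZH2 (-0.38, adjusted p = 0.0161) and DNMT3B (-0.66, adjusted p = 0.0357) lower, against 18% of genes. On d5, 5.13% of genes and 1 member were called. EZH2 was higher with CFSE than without (79.9 to 93.7 against 50.1 to 63.7 CPM, 0.64, SE 0.16, adjusted p = 0.0357), and 15 of the 16 proliferation genes were higher too (median 0.77), with summed levels of 4460 to 5330 CPM with CFSE and 2330 to 3320 CPM without. DNMT1 was at 213 to 259 against 88.1 to 186 CPM (0.65, SE 0.21, adjusted p = 0.0706). Without DMSO d1 replicate 4 both EZH2 (0.65, adjusted p = 0.000915) and DNMT1 (0.66, adjusted p = 0.0261) were called, against 13.3% of genes. Without CFSE d1 replicates 1 and 2, EZH2 was called (0.62, adjusted p = 0.0466) and DNMT1 was not (adjusted p = 0.0737), against 6.73% of genes. The EZH2 call was lost when replicate 1, 2 or 3 was left out.

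The test of whether time acted differently with and without dye called 0.999% of genes and 0 members (edgeR). At an unadjusted p under 0.05, 2474 genes passed, and of the members EZH2 (0.79, adjusted p = 0.1), KDM5B (-1.24, adjusted p = 0.123), DNMT1 (0.73) and DNMT3B (0.75) did. DESeq2 called 2 members, and its share of all genes is not given here. Without DMSO d1 replicate 4, 3 members passed, against 6.09% of genes: EZH2 (1.03, adjusted p = 0.00175), DNMT3B (0.98, adjusted p = 0.0497) and KDM5B (-1.37, adjusted p = 0.0425). Without CFSE d1 replicates 1 and 2 no member passed, against 0.0905% of genes, with EZH2 at 0.79 (adjusted p = 0.404) and KDM5B at -0.41 (adjusted p = 0.724).

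**Figure D4:**
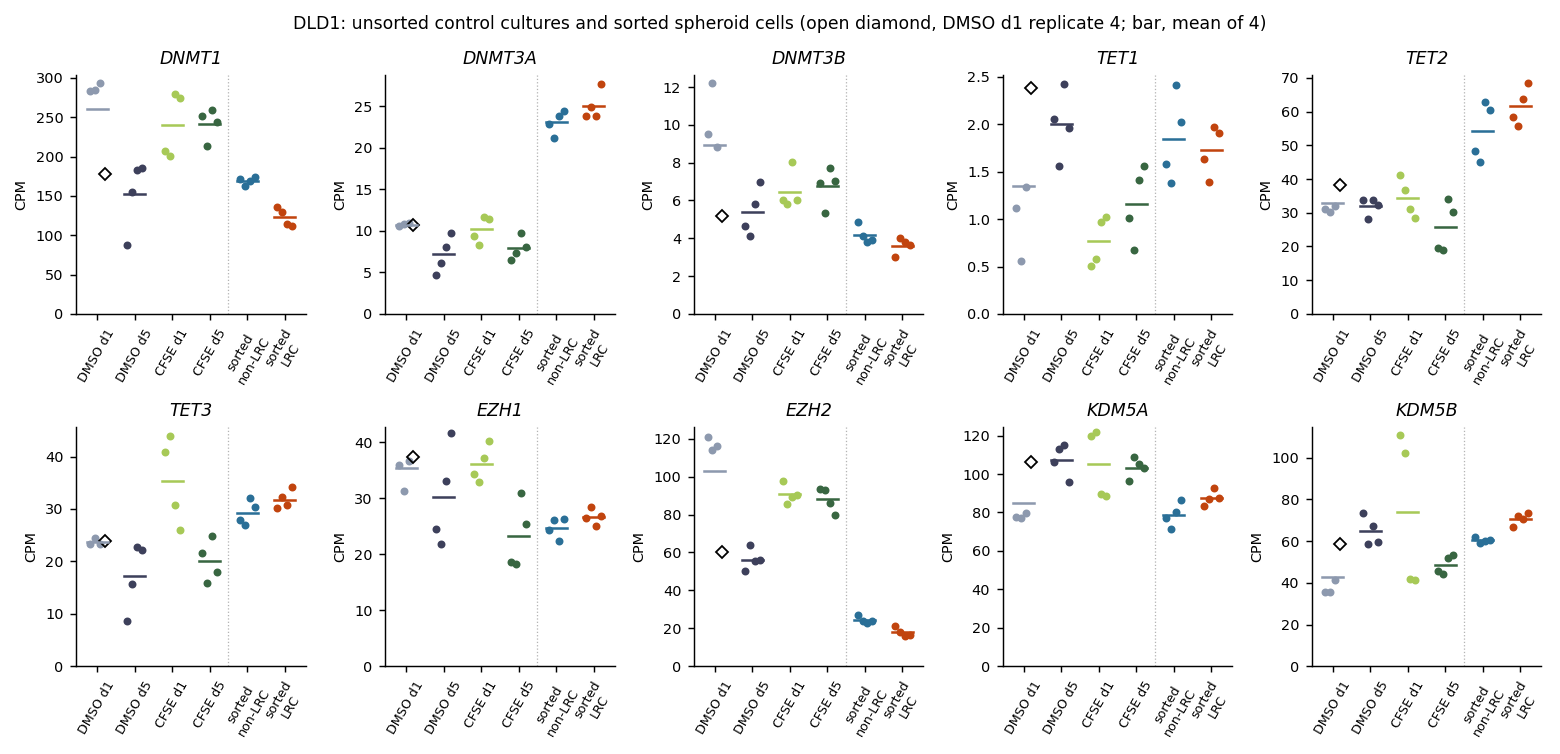
CPM of each member (y axis, from 0) in the 4 groups of unsorted controls labelled DLD1 and the 2 groups of sorted DLD1 cells, with 1 point per sample and a bar at the mean of 4; the open diamond is the library labelled DMSO d1 replicate 4. EZH2 is at 15.7 to 26.8 CPM in sorted cells and 50.1 to 121 CPM in the controls, and DNMT3A is at 21.2 to 27.7 and 4.74 to 11.7 CPM.

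Side by side, sorted DLD1 cells and the unsorted controls labelled DLD1 held different levels of some members. EZH2 was at 22.7 to 26.8 CPM in sorted non-LRCs, below the range of every control group (50.1 to 121 CPM). DNMT3A was at 21.2 to 24.4 CPM in non-LRCs and at 4.74 to 11.7 CPM in the controls, and TET2 at 45.1 to 62.8 and 19.1 to 41.2 CPM. DNMT1 in non-LRCs (162 to 174 CPM) was within the control range (88.1 to 294 CPM). In HCT15 non-LRCs, DNMT3A was at 9.73 to 11.8 CPM, EZH2 at 37.3 to 54.6 CPM and TET2 at 32.4 to 46.1 CPM, nearer to the controls than sorted DLD1 was. Sorting, the handling of the experiments and the identity of the line cannot be told apart here, so these levels were not tested.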

How the data were processed

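Per the labels, RNA was isolated with the RNeasy Micro kit, made into TruSeq libraries and sequenced as 50-base reads. The authors deposited raw read counts per Ensembl gene for each sample, on hg19; the submitters' processing notes name TopHat, HTSeq and DESeq without versions. The 5 summary rows that name no gene (27.1 to 39.6% of all reads) were left out. Counts were tested with edgeR 4.0.16 (R 4.3.3; TMM, quasi-likelihood F test, at least 10 counts in 4 samples), with Benjamini-Hochberg adjustment over all genes tested and a threshold of 0.05. Each line was fitted alone, the 6 lines together with line as a term, and the 16 controls together. Log2 CPM used a prior count of 2. Figures used matplotlib 3.10.9. Whether strand was used in counting is not given in the sources used here. Symbols were found for 47098 of 54127 genes (87%), and for 106 of 110 listed genes. Gene positions and lengths are from GENCODE 44 lifted to GRCh37.

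The members and gene lists were chosen with earlier results of these data known. All 10 members are named, with the called companion genes of smallest p (at most 4 per list) and the 3 genes nearest to each member. Scripts were tested on simulated data. No pair of samples was identical. Same-numbered samples deviated together (every r over 0.1) in HT55, SW48, DLD1 and HCT15 (lowest r 0.22, 0.185, 0.254 and 0.333) and over time with CFSE (0.158). Alternatives were DESeq2 1.42.0, its size factors, no TMM, no filter, the replicate block, 1 fit of all sorted samples and leaving out each replicate number. Leaving out DMSO d1 replicate 4, or CFSE d1 replicates 1 and 2, was added after seeing the data, as was the comparison of the controls with each sorted line (log2 of CPM without TMM plus 1).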

Additional observations from a re-analysis of the deposited data

Results flagged for a closer look

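In 160 groups of 4 samples, 1 for each member and group, the highest or lowest sample was compared with the rest of its group by Dixon's ratio at its 95% critical value, which chance alone passes in about 1 of 20 groups. The library labelled DMSO d1 replicate 4 stood apart for 3 members: DNMT1 at 178 CPM (the others at 283 to 294), EZH2 at 60 CPM (114 to 121) and KDM5A at 106 CPM (77 to 79.8). Among sorted samples, DNMT1 was at 168 CPM in SW48 LRC replicate 2 (123 to 130). KDM5A was at 160 CPM in RKO LRC replicate 4 (143 to 145) and at 152 CPM in HT55 non-LRC replicate 1 (the others at 149). HCT15 non-LRC replicate 4 was high for TET2 (46.1 CPM, the others 32.4 to 34) and for KDM5B (73.8 CPM, 65.8 to 67). DNMT3A was at 12.4 CPM in HCT15 LRC replicate 3 (11.1 to 11.2), and DNMT3B at 8.05 CPM in CFSE d1 replicate 3 (5.79 to 6.04). TET1 in HT55 was at 0.0737 CPM in non-LRC replicate 4 and 0.0762 CPM in LRC replicate 4, each a single read where the others had 0.

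The effect of label retention differed between lines for TET1 (adjusted p = 0.00738, edgeR) and KDM5B (adjusted p = 0.0446).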

How the results depend on the processing

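Among members across lines, and calls within lines or controls, the direction reversed in 4 cases, none of them called in the reversed direction: DNMT3A across lines (0.0086 without replicate 1 and 0.0038 without replicate 3, with a range of -0.0513 to 0.0086 over the replicates left out), TET1 across lines (-0.0117 without replicate 2, range -0.0117 to 0.168), and KDM5B with dye on d1 (-0.0204 without CFSE d1 replicates 1 and 2). Among control values that were not called, leaving out CFSE d1 replicates 1 and 2 also turned KDM5B (from -0.65 to 0.14), KDM5A (from -0.06 to 0.13) and DNMT3B (from 0.03 to -0.14) over time with CFSE, DNMT3A (from 0.18 to -0.02) for dye by time, and for dye on d1 DNMT1 (from -0.08 to 0.11), DNMT3A (from -0.05 to 0.13) and TET2 (from 0.09 to -0.12). Counts of called members that moved by over 1.5 times are given here, and the cause was not tested. The share of all genes called moved with the setting too. A count given without that share is therefore no result about the members. Across lines, 3 members were called without the filter, without TMM, and whichever replicate was left out (3 to 3). Leaving out replicates gave 0 to 1 in SW948, 1 to 3 in DLD1, 0 to 3 for the difference between lines, 0 to 7 for time without dye, 1 to 4 for time with CFSE, 0 to 4 for dye on d1, 0 to 2 for dye on d5 and 0 to 4 for dye by time. With the replicate block, where the pairing held, SW48 had 2 called members (9.69% of all genes) and DLD1 5 (33.8%). Where not every pair deviated together, the block gave 4 for the difference between lines (33.6%), 0 for dye on d1 (26.2%) and 2 for dye on d5 (10.4%). It moved no other count of members by over 1.5 times. A fit of all sorted samples gave 1 in DLD1, and no filter gave 1 in SW948, 2 for dye on d5 and 2 for dye by time. Over time with CFSE, DESeq2 gave 4 and no TMM 4. DESeq2 gave 2 for dye on d5 and 2 for dye by time. Without DMSO d1 replicate 4 the counts were 7 for time without dye (42.1% of all genes), 4 for time with CFSE (43.7%), 4 for dye on d1 (18%), 2 for dye on d5 (13.3%) and 3 for dye by time (6.09%). Without CFSE d1 replicates 1 and 2 they were 1 for time with CFSE (19.6%) and 0 for dye on d1 (1.36%). Across lines TET1, with the fewest reads, had the widest interval among the members.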
